A study of Mus musculus with 37 samples.

Results

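Genes that store, sense or move zinc, 8 in all, were followed in astrocytes of the mouse cortex after traumatic brain injury. They are the metallothioneins Mt1, Mt2 and Mt3, the transcription factor gene Mtf1, the exporter genes Slc30a1 and Slc30a10 and the importer genes Slc39a12 and Slc39a14. The 8 members were chosen by symbol, matched to Ensembl identifiers, and were all found among the 21975 genes listed for each hemisphere. Astrocytes were taken with magnetic beads against the surface antigen ACSA-2 from CD1 male mice, a strain that the sample labels write as CD31, at 4 months after surgery, and no transgene is named. Severe controlled cortical impact (CCI), a mechanical blow to the exposed cortex of 1 side, was compared with sham surgery, which opened the skull over the right parietal cortex, and all mice, sham mice included, later carried electrodes for the electroencephalogram (EEG). Injured mice in which seizures were identified were called PTE+ (post-traumatic epilepsy) and the other injured mice PTE-. The ipsilateral cortex gave 5 sham, 10 PTE- and 4 PTE+ libraries, and the contralateral cortex 5 sham, 9 PTE- and 4 PTE+ libraries. Both hemispheres were sequenced in 17 of the 20 mice, of which 5 were sham, 9 PTE- and 3 PTE+. The age of the mice was not in the sources used here, and each library came from 1 hemisphere of 1 mouse, named here by its label (8_11, 9_17).

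Metallothioneins are small cysteine-rich proteins that bind zinc and copper and take up reactive oxygen species. In the brain, astrocytes are the main site of Mt1 and Mt2, which are induced by metals, glucocorticoids, cytokines and oxidative stress, while Mt3 is the brain form and is far less inducible. MTF-1, the product of Mtf1, senses free zinc and switches on Mt1, Mt2 and Slc30a1 through short metal response elements. ZnT proteins (Slc30 family) move zinc out of the cytosol and ZIP proteins (Slc39 family) move it in. Slc30a1 encodes ZnT1, the zinc exporter of the cell surface, and Slc30a10 encodes a ZnT relative best known for exporting manganese. Slc39a12 encodes ZIP12, a zinc importer prominent in the brain, and Slc39a14 encodes ZIP14, which carries zinc, manganese and iron and is induced in inflammation.

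Values are TPM, a measure of transcript abundance that corrects for gene length and sums to the same total in each library, so levels of different genes can be set side by side but sequencing depth is unknown. The number of genes above 0 TPM ranged from 15599 to 18534 in 36 libraries, and was 10727 in the ipsilateral library of PTE- mouse 9_14, which stands apart. Results that include this library are given with and without it where it matters. The libraries carried the markers of astrocytes, with the summed TPM of 10 astrocyte markers from 14209 to 20577, against 120.3 to 854 for 12 microglia markers and 76.3 to 784 for 10 neuron markers. Sums were higher for oligodendrocyte markers (541 to 4504 TPM), mural and meningeal markers (784 to 4975 TPM, the highest in mouse 9_14) and endothelial markers (317 to 2259 TPM). Transcripts of these other cell types were therefore present at varying levels. No marker of any list had a median of 0 in any group. In bulk samples, fewer cells of a type and less RNA per cell cannot be told apart.

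The sequences before the starts of the metallothionein genes and of Slc30a1 are shown because Mt1, Mt2 and Slc30a1 are textbook targets of MTF-1, with Mt3, their less inducible neighbour, for comparison. Mt3, Mt2 and Mt1 lie in this order, all on the + strand, within 27.7 kb of chromosome 8 (94152607 to 94180327 on GRCm38). The 250 bases before each RefSeq start on GRCm38.p6 follow, 5′ to 3′. Capitals mark the 7-base core of the metal response element, searched on both strands as TGCACNC and TGCGCNC, with each of 2 overlapping matches counted.
Mt1, chr8:94178839-94179088, + strand: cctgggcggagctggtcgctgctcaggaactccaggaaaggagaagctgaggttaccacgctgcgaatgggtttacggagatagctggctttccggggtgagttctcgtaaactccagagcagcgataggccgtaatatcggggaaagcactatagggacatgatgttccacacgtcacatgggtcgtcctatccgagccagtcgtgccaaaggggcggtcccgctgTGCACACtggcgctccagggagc
Mt2, chr8:94172368-94172617, + strand: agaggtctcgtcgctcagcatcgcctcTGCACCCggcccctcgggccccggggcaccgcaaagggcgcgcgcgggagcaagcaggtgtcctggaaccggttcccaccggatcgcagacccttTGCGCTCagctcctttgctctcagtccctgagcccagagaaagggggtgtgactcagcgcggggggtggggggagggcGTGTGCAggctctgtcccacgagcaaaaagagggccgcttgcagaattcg
Mt3, chr8:94152357-94152606, + strand: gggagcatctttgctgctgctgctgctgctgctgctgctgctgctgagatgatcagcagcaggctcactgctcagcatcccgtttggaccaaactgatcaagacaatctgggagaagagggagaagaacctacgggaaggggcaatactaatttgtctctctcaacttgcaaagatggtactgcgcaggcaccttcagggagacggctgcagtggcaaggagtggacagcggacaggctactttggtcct
Slc30a1, chr1:191906531-191906780, + strand: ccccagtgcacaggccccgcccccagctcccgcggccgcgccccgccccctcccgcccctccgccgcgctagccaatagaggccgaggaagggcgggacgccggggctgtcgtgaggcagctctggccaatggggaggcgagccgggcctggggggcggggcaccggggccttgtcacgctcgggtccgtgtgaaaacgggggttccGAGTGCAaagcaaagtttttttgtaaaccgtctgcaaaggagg
In windows of 300 bases, 250 before and 50 after the start, the core matched 4 times in Mt2, 3 times in Mt1, 3 times in Slc30a10, 2 times in Slc30a1, 1 time in Mt3 and 0 times in Mtf1 and Slc39a12. In Mt1, 2 of the 3 matches lie just after the RefSeq start, at chr8:94179091-94179115.
Mt1, after the start, + strand: TGCACTCcgcccgaaaagTGCGCTC
In Slc30a10, 2 of the 3 matches overlap on opposite strands. At least 1 match was found in 25.7% of 32851 promoter windows of this length, at least 3 in 1.97% and at least 4 in 0.517%. The window of Slc39a14 was not among the sequences used here. A match is a description of the letters and was not tested for binding.

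The metallothioneins were among the most abundant transcripts of these astrocytes. Mt1 ranked between the 5th and the 19th of all 21975 genes in every library, Mt3 between 17 and 75 and Mt2 between 33 and 143. Together these 3 genes made up 0.712% to 2.02% of all TPM. The order of levels was Mt1 above Mt3 and Mt3 above Mt2 in all but 2 of the 37 libraries, where Mt2 exceeded Mt3. Mt2 was above Slc39a12, Slc39a12 above Slc30a10 and Slc30a10 above Slc30a1 in 37 of 37 libraries. Slc30a1 was above Slc39a14 in 34 of 37 libraries, and Slc39a14 and Mtf1 did not keep an order, with Slc39a14 the higher in 21 of 37. Of the zinc importers outside the members, Slc39a7, which encodes a ZIP of the secretory pathway, had the highest mean at 217 ± 30.7 TPM (SD, n = 37), and Mt4, the metallothionein of stratified epithelia, was listed at 0 TPM in every library.

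**Figure D1:**
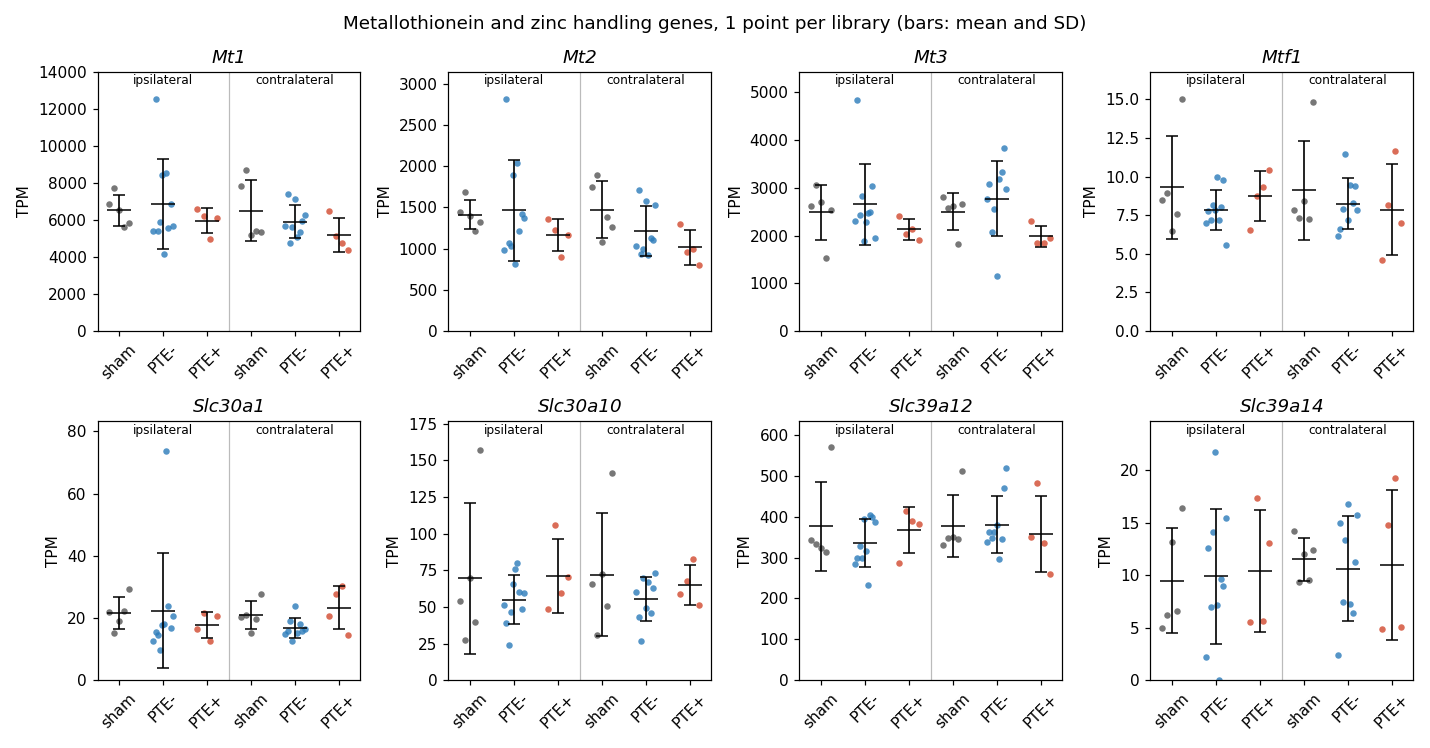
TPM of the 8 genes (vertical axes, linear, from 0) by hemisphere and group, with 1 point per library and bars for the mean and SD. Groups overlap for every gene, the ipsilateral library at 73.7 TPM of Slc30a1 and 0 TPM of Slc39a14 is that of PTE- mouse 9_14, and the sham points at 157 and 141 TPM of Slc30a10 are both hemispheres of mouse 9_11.

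Between injured and sham mice at 4 months no zinc handling gene of the ipsilateral cortex was called, and few of all genes were. A gene was called when the unadjusted p of limma, a linear model fitted to log2(TPM + 1) of all genes, was under 0.05 and the fold at least 1.2. The study used these thresholds with another test, DESeq2 on counts. Differences on this scale understate the change of genes with low TPM. Of the 8 members, all of which passed the filter of a mean above 5 TPM in 1 of the groups compared, 0 were called between injured and sham mice, against 1.62% of 10434 genes tested. At that share, 0 of 8 does not set the members apart from other genes. No member had an unadjusted p under 0.05. Their log2 differences, injured minus sham, lay between -0.19 and 0.00, with standard errors of 0.14 to 0.52, and the median of all genes was -0.01. In the same libraries Gfap, the intermediate filament gene of reactive astrocytes, averaged 653 TPM (SD 241, n = 14) after injury, against 273 TPM (SD 74.0, n = 5) after sham surgery. This was a fold of 2.27 (limma p = 0.000523, adjusted p = 0.909). Of 11 tested oligodendrocyte markers, 5 were called lower on this side, with a median log2 difference of -0.998, and their part in the members' levels was not tested.

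Mt1 and Mt2 spread more in the ipsilateral PTE- group than between groups. Mt1 was 5635, 5849, 6525, 6876 and 7750 TPM in the 5 ipsilateral sham libraries. In the 10 PTE- libraries it ran from 4186 through a median of 5799 to 12563 TPM, and in the 4 PTE+ libraries it was 4975, 6115, 6232 and 6589 TPM. The PTE+ libraries therefore lay within the PTE- range, and the highest and the lowest library were both PTE-. The highest was that of mouse 8_11, which was also highest of the ipsilateral libraries for Mt2 (2811 TPM) and Mt3 (4840 TPM). The log2 difference of Mt1, injured minus sham, was -0.03 (95% confidence interval -0.40 to 0.34), and that of Mt2 was -0.11 (-0.55 to 0.33). For Mt3 it was 0.00 (-0.37 to 0.37).

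Mt2 was the one member called between injured and sham mice in the contralateral cortex, where it was lower after injury. Its contralateral levels were 1079, 1266, 1380, 1749 and 1899 TPM in the sham libraries. They ran from 929 through a median of 1109 to 1717 TPM in the 9 PTE- libraries and were 797, 962, 998 and 1300 TPM in the 4 PTE+ libraries. The groups overlapped, with 7 of the 13 injured libraries below every sham library and 0 above every sham library. The injured libraries averaged 1156 TPM (SD 287, n = 13) and the sham libraries 1475 TPM (SD 341, n = 5). The log2 difference was -0.36 (standard error 0.17, limma p = 0.0448, adjusted p = 0.978). The two-sided exact permutation test over libraries gave p = 0.0622. This call of 1 member in 8 stands against 4.05% of 10556 genes, and the adjusted p of no gene was under 0.05 in that comparison.

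The contralateral call of Mt2 depended on single mice and on the scaling. It was lost without sham mouse 8_15 (log2 difference -0.29), 8_16 (-0.26) or 9_10 (-0.37), and without PTE+ mouse 8_17 (-0.34), 9_17 (-0.34) or 9_18 (-0.32). It held when the mouse left out was sham 9_9 (-0.46), sham 9_11 (-0.41) or PTE+ 8_10 (-0.38). With each library centred on its median the difference was -0.26 and not called, with array weights it was -0.32 and not called, and with quantile normalization it was -0.44 and called (limma p = 0.0176, adjusted p = 0.999). In mice whose names begin with 8 the difference was -0.69 (6 injured and 2 sham), and in mice whose names begin with 9 it was -0.14 (7 injured and 3 sham). What the first number of the name stands for is not given in the sources used here. Of 11 tested microglia markers, 9 lay above 0 and 1 (Trem2) was called higher in the injured contralateral libraries. Of 10 astrocyte markers, 8 lay below 0 and 0 were called. Immediate early genes such as Fos and Jun lay below 0 in 9 of 9 tested, with 0 called and a median log2 difference of -0.36. Neuron markers lay below 0 in 8 of 9, with 0 called and a median of -0.24. The part of these lists in the level of Mt2 was not tested.

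All 8 members had a lower mean log2 level in injured than in sham contralateral libraries, with differences from -0.36 to -0.02 and a median of -0.16, where the median of all 10556 genes was -0.07. This common direction did not hold throughout, since 6 of 8 lay below 0 with median centring, 7 of 8 with quantile normalization and 5 of 8, with a median of -0.03, without sham mouse 9_11. Of 30 zinc handling genes listed (11 exporter, 14 importer and 5 metallothionein or regulator genes, members included), 21 were tested on this side, with 0 called higher and 1, Mt2, called lower. Their median was -0.10. In the ipsilateral cortex 21 were tested, 0 were called and the median was -0.03.

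Mt2 was also set against sham mice for each outcome. Contralateral PTE+ libraries averaged 1014 TPM (SD 209.8, n = 4), all 4 below the sham median, with a log2 difference of -0.53 from sham mice (two-sided exact permutation p = 0.0476). The 9 PTE- libraries differed from sham mice by -0.28 (exact permutation p = 0.162). After adjustment over the 16 comparisons of 8 members and both outcomes in this hemisphere, the adjusted p was 0.423 for PTE+ and 0.635 for PTE- mice. In the ipsilateral cortex the 4 PTE+ libraries, at 904, 1171, 1222 and 1358 TPM, were again all below the sham median of 1392 TPM, by -0.29 (exact permutation p = 0.0635, adjusted p = 0.984). With 4 against 5 libraries the smallest p that this test can give is 0.00794. PTE+ and PTE- mice share the sham libraries, so these values are not independent of each other.

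**Figure D2:**
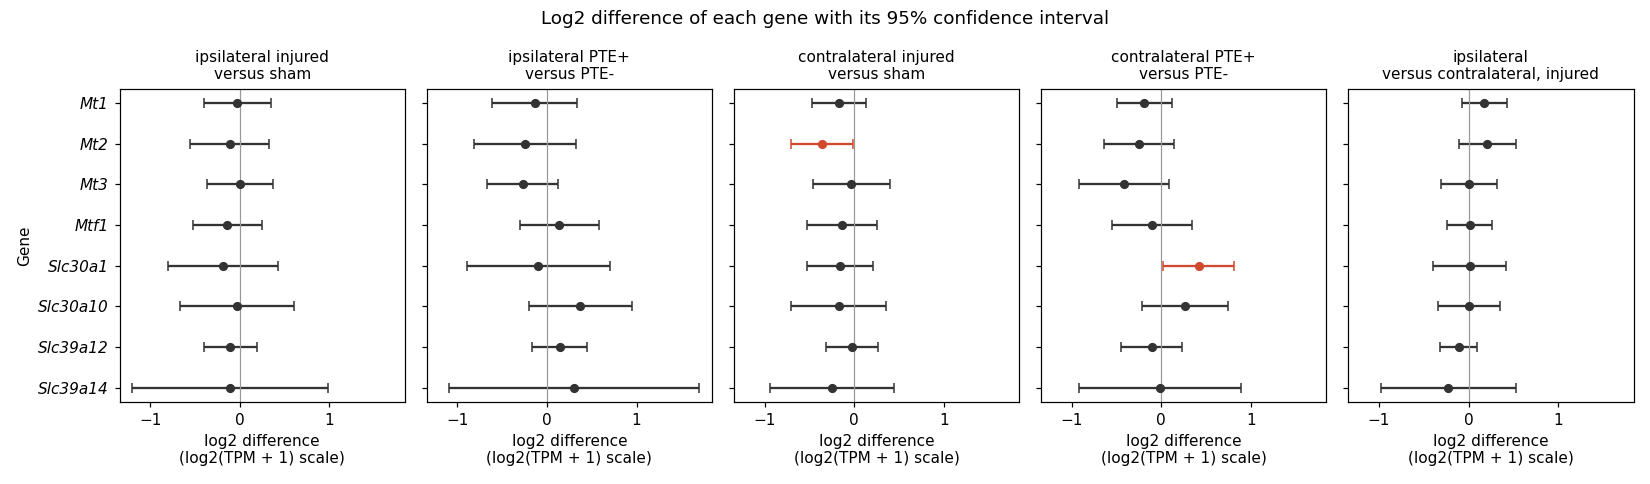
Log2 difference (horizontal axes, on the log2(TPM + 1) scale) of the 8 genes in the 5 comparisons, with points for the estimate and bars for its 95% confidence interval from limma. Genes called are in red, which are Mt2 in contralateral injured against sham mice and Slc30a1 in contralateral PTE+ against PTE- mice.

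In the comparison of outcomes, Slc30a1, the gene of the surface zinc exporter ZnT1, was the one member called, higher in the contralateral cortex of PTE+ mice. It was 14.7, 20.8, 27.8 and 30.3 TPM in mice 9_18, 8_10, 8_17 and 9_17. The 9 PTE- libraries ran from 12.7 through a median of 15.9 to 23.8 TPM, and the 5 sham libraries from 15.3 through 20.5 to 27.9 TPM. Mice 8_17 and 9_17 were above every PTE- library, while 9_18 was below the PTE- median. PTE+ mice averaged 23.4 TPM (SD 7.02, n = 4) and PTE- mice 16.9 TPM (SD 3.19, n = 9). This was a fold of 1.33 and a log2 difference of 0.42 (standard error 0.19, limma p = 0.0403, adjusted p = 0.999). The two-sided exact permutation p was 0.0476. Of all 10423 genes tested, 2.79% were called, and an adjusted p under 0.05 was reached by 0.

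Set against sham mice, contralateral Slc30a1 differed by 0.13 on the log2 scale in PTE+ mice (exact permutation p = 0.532) and by -0.29 in PTE- mice (exact permutation p = 0.0759), neither past the threshold. The call was lost without mouse 8_17 (log2 difference 0.32), without mouse 9_17 (0.28) and without mouse 8_10 (0.45), and with quantile normalization (0.36) or median centring (0.36). It held without mouse 9_18, at 0.61 (limma p = 0.0039, adjusted p = 0.653), and with array weights (0.34). Among mice of prefix 8 the difference was 0.61 and among those of prefix 9 it was 0.25.

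Endothelial markers moved with the same comparison, while mural and meningeal markers did not. Of 9 tested mural and meningeal markers, 4 lay above 0, 5 below 0 and 0 were called, with a median log2 difference of -0.02. Of 9 tested endothelial markers, 9 lay above 0 and 2 (Pecam1 and Tek) were called higher in contralateral PTE+ mice, with a median log2 difference of 0.72. Their summed level ran from 718 to 2259 TPM in PTE+ libraries, 486 to 1352 TPM in PTE- libraries and 424 to 1814 TPM in sham libraries. The PTE+ sums were 718 TPM in mouse 9_18, 1267 TPM in 8_17, 1792 TPM in 8_10 and 2259 TPM in 9_17. For Slc30a1 too, mouse 9_18 was lowest and 9_17 highest, while 8_17 was above 8_10. In sham mice the highest Slc30a1, 27.9 TPM in mouse 9_11, went with a sum of 755 TPM, and the highest sum, 1814 TPM in mouse 8_16, with 21.0 TPM of Slc30a1. The lowest Slc30a1 and the lowest sum, 15.3 and 424 TPM, were both in sham mouse 9_9. Of 9 tested neuron markers, 9 lay above 0 and 1 (Stmn2) was called higher, with summed levels of 166 to 704 TPM in PTE+, 76.3 to 685 TPM in PTE- and 167 to 723 TPM in sham libraries. The part of any of these cell types in the level of Slc30a1 was not tested.

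In the ipsilateral cortex 0 of the 8 members were called between PTE+ and PTE- mice, against 0.573% of 10473 genes, and 0 had an unadjusted p under 0.05. The median log2 difference of all genes was 0.12 and that of the members 0.02, with values from -0.27 (Mt3) to 0.37 (Slc30a10). Slc30a1 was 12.8, 16.4, 20.7 and 21.8 TPM in the PTE+ libraries. The PTE- libraries ran from 9.80 through 17.3 to 73.7 TPM, the last being mouse 9_14. The log2 difference was -0.10 with that library and 0.11 without it, so the sign of this uncalled value turned with 1 library. Slc39a14, listed at 0 TPM in that library, likewise went from 0.30 to -0.04. Without that library, the log2 difference of Slc30a1 between injured and sham mice went from -0.19 to -0.34 (exact permutation p = 0.0796), and that of Slc39a14 from -0.11 to 0.13 (exact permutation p = 0.733).

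Mt3, the brain metallothionein, lay below the PTE- and sham medians in every PTE+ library of both hemispheres, although no test made here passed. The study, with DESeq2 on counts, listed Mt3 among the genes lower in PTE+ than in PTE- mice in both hemispheres. It also named Mt1 among those lower on the contralateral side. The result for these genes thus differs between the study's test and those used here, and counts were not analysed. The ipsilateral levels of Mt3 were 1910, 2037, 2146 and 2416 TPM in PTE+ libraries. The PTE- libraries ran from 1887 through a median of 2449 to 4840 TPM and the sham libraries from 1527 through 2611 to 3062 TPM. All 4 PTE+ libraries lay below both medians, within the range of both groups. In the contralateral cortex the PTE+ libraries were at 1837, 1843, 1950 and 2313 TPM. The PTE- libraries ran there from 1159 through 2975 to 3830 TPM and the sham libraries from 1829 through 2624 to 2805 TPM. Again 4 of 4 PTE+ libraries were below both medians and none was outside the range of the PTE- group.

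The log2 difference of Mt3, PTE+ minus PTE-, was -0.27 in the ipsilateral (95% confidence interval -0.67 to 0.13, exact permutation p = 0.195) and -0.42 in the contralateral cortex (-0.92 to 0.09, exact permutation p = 0.144). Against sham mice it was -0.19 (exact permutation p = 0.373) and -0.32 (exact permutation p = 0.0794). With each PTE+ mouse left out the contralateral value stayed between -0.49 and -0.38. The mice were mostly the same in both hemispheres, so the second value is no independent repeat of the first. In the same comparison immediate early genes, which respond within minutes to stimulation and also to tissue handling, lay below 0 in 8 of 8 tested ipsilaterally, with 4 called lower and a median of -0.61, and in 9 of 9 contralaterally, with 0 called and a median of -0.32. Their summed level was 227 to 369 TPM in ipsilateral PTE+ and 282 to 1369 TPM in PTE- libraries, and 245 to 693 TPM against 302 to 2450 TPM on the contralateral side. Neuron markers lay above 0 in 9 of 9 on both sides, with 0 called ipsilaterally and 1 contralaterally. The part of either in the level of Mt3 or Slc30a1 was not tested.

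The other transporters and Mtf1 gave wide or small differences between outcomes. Slc30a10 had a log2 difference of 0.37 (95% confidence interval -0.20 to 0.94) in the ipsilateral and 0.26 (-0.21 to 0.74) in the contralateral cortex. Slc39a12 averaged 334 TPM (SD 58.6, n = 10) in ipsilateral PTE- libraries against 367 TPM (SD 55.8, n = 4) in PTE+ libraries. On the contralateral side its averages were 380.0 TPM (SD 69.5, n = 9) and 356 TPM (SD 92.9, n = 4). Neither difference passed the test, and they ran in opposite directions. Mtf1, at 4.6 to 15.01 TPM in all libraries, differed by 0.14 in the ipsilateral and -0.10 in the contralateral cortex. Slc39a14 had the widest intervals, -1.10 to 1.70 in the ipsilateral and -0.92 to 0.89 in the contralateral cortex.

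The level of most members in a mouse was alike in both hemispheres. Over the 17 mice with both hemispheres, log2(TPM + 1) of Slc30a10 in 1 hemisphere followed that in the other with a Pearson r of 0.88 (permutation p = 3e-05) and a Spearman rho of 0.68 (permutation p = 0.00372). Without the 2 mice farthest from the median r was 0.73. Slc39a14 gave r = 0.82 (permutation p = 7e-05) and rho = 0.74 (permutation p = 0.00101), with r = 0.69 without the 2 farthest mice. For Mt2 r was 0.80 (permutation p = 6e-05) and rho 0.83 (permutation p = 8e-05), with 0.82 without them. For Mt1 r was 0.70 (permutation p = 0.00115) and rho 0.77 (permutation p = 0.00052), with 0.69 without them. In these 4 genes r was from 0.65 to 0.97 within the mice of each name prefix (7 mice with 8 and 10 with 9).

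Mt3, Mtf1 and Slc30a1 had an r of 0.56, 0.66 and 0.66 between hemispheres, with rho of 0.51, 0.49 and 0.55. Without the 2 farthest mice r was 0.58, 0.52 and 0.42. Slc39a12 gave r = 0.49 (permutation p = 0.0496), which fell to 0.28 without the 2 farthest mice, with a rho of 0.15 (permutation p = 0.572), so that its relation rested on those mice. Within the 7 mice of prefix 8 its r was -0.39, within the 10 of prefix 9 it was 0.53, and after subtracting group means it was 0.57 over all 17. Adjusted over the 8 genes, the permutation p of r was 0.000187 for Slc30a10, Slc39a14 and Mt2, 0.0023 for Mt1, 0.0282 for Mt3, 0.00801 for Mtf1, 0.00678 for Slc30a1 and 0.0496 for Slc39a12. For Slc30a10 the spread within a mouse was 0.21 and that among mice 0.59 (SD of log2 values).

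Single mice show this in both hemispheres. Sham mouse 9_11 had 157 and 141 TPM of Slc30a10 in the ipsilateral and contralateral cortex, where the other sham libraries lay between 27.4 and 72.4 TPM. The same mouse was highest of all libraries for Mtf1, at 15.01 and 14.8 TPM, and the highest sham mouse for Slc39a12, at 569 and 512 TPM. It also had the lowest summed oligodendrocyte markers of the sham libraries (541 and 1062 TPM) and the highest mural and meningeal markers (2562 and 2714 TPM), whose part in these levels was not tested. PTE- mouse 8_13 was lowest of all for Slc30a10, at 24.3 and 26.8 TPM. PTE- mouse 8_9 had 2.23 and 2.4 TPM of Slc39a14, while the other PTE- mice with both hemispheres had 6.39 to 21.8 TPM.

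**Figure D3:**
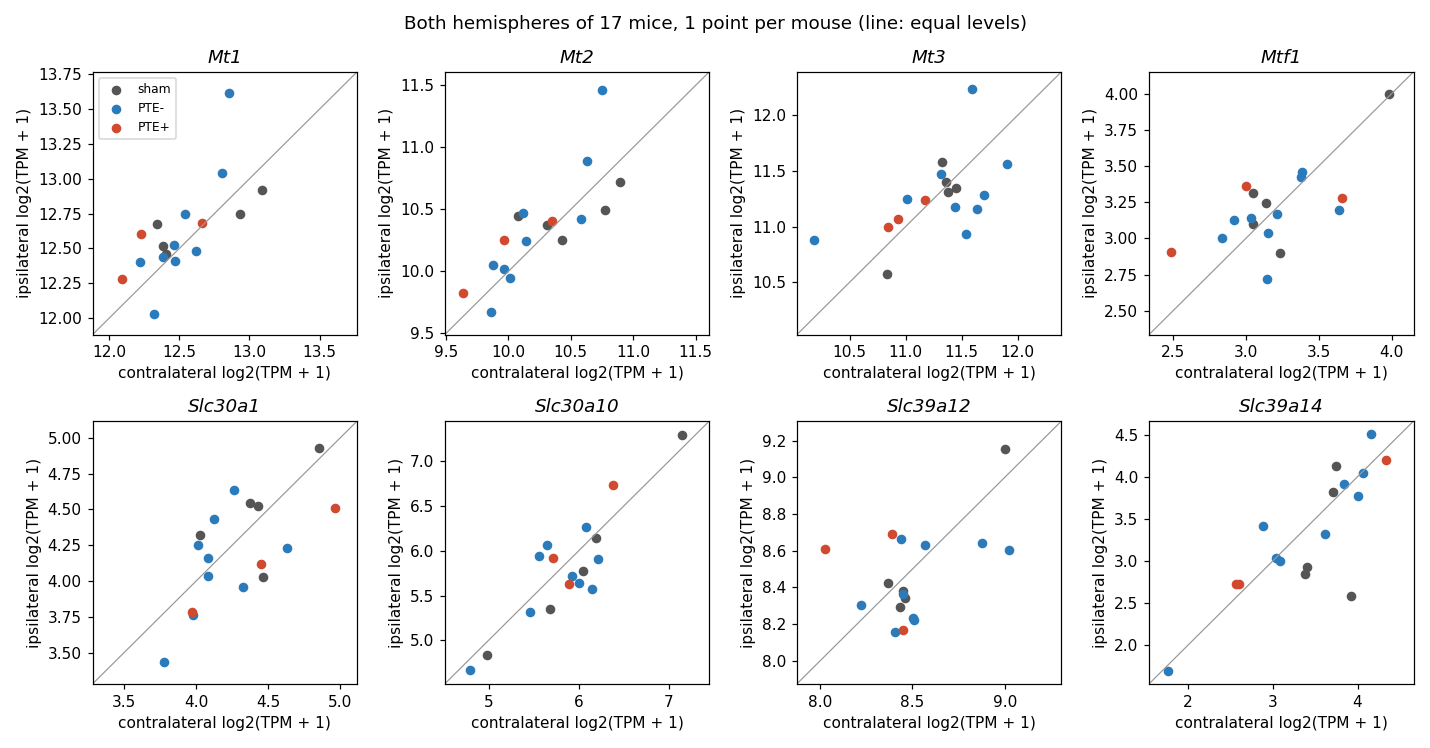
Ipsilateral against contralateral log2(TPM + 1) of the 8 genes, 1 point per mouse for the 17 mice with both hemispheres, coloured by group, with a line of equal levels. Mice are spread widely along the line for Slc30a10 (r = 0.88) and Slc39a14 (r = 0.82) and little for Slc39a12 (r = 0.49), whose points lie about as near to the line (SD within a mouse 0.18) as those of the other genes (0.18 to 0.30).

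Injured mice showed no called difference of a member between the hemispheres, against 2.54% of 10357 genes. Mt1 and Mt2 were slightly higher on the injured side, by 0.18 and 0.21 on the log2 scale. Within mice, in a fit with the mouse as a block over the 12 injured mice with both hemispheres, these values were 0.13 (limma p = 0.0954, adjusted p = 0.615) and 0.15 (limma p = 0.0472, adjusted p = 0.520), and Mt2 was under the fold of 1.2 needed for a call. The ipsilateral level was the higher in 9 of 12 injured and 2 of 5 sham mice for Mt2, and in 9 of 12 and 3 of 5 for Mt1. The within-mouse difference did not differ between injured and sham mice beyond its spread (Mt2 by 0.19, exact permutation p = 0.179, and Mt1 by 0.10, exact permutation p = 0.465). Over the 8 members and both contrasts of the groups, 16 tests in all, 0 had an exact permutation p under 0.05. The smallest, 0.0737, was that of Slc39a14 between injured and sham mice. For Slc30a1 the ipsilateral level was the lower in 3 of 3 PTE+ mice, by -0.32 on average, and in 5 of 9 PTE- mice, by -0.04, a difference of -0.28 (exact permutation p = 0.168).

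Mt1 and Mt2 rose and fell together from library to library. After subtracting group means, log2(TPM + 1) of both genes had a Pearson r of 0.97 over 19 ipsilateral and 0.91 over 18 contralateral libraries, with a permutation p of 1e-05 for each r, the smallest that 100000 permutations can give. Spearman rho was 0.95 (permutation p = 1e-05) and 0.85 (permutation p = 3e-05), and without the 2 libraries farthest from the median of Mt1 r was 0.93 and 0.89. Within mice of each name prefix r was from 0.87 to 0.99. All values of r within a prefix in this paragraph were taken without subtracting group means, unlike the others. After adjustment over all 56 correlations the permutation p of r was 0.00028 for both. The ratio of Mt1 to Mt2 kept between 3.93 and 5.69 in all 37 libraries, with a median of 4.80. Mt1 and Mt2 are close in sequence, how reads were divided between them is therefore uncertain, and the paired values come from 1 library. Mt3 followed them less closely, with a ratio to Mt2 from 0.733 to 3.45. Its r with Mt1 was 0.57 in the ipsilateral (permutation p = 0.0155, adjusted p = 0.145) and -0.01 in the contralateral cortex. With Mt2 it was 0.46 (permutation p = 0.0483, adjusted p = 0.196) and -0.11. Without the 2 farthest libraries the ipsilateral r with Mt1 was 0.20. Within mice of prefix 8 the r with Mt1 was 0.94 and 0.65, and within prefix 9 it was 0.12 and -0.17. Of the 56 correlations between members, 28 in each hemisphere, the other pair with an adjusted permutation p of r under 0.05 was Slc39a12 and Slc39a14 in the ipsilateral cortex (r = 0.67, adjusted p = 0.036), with r = 0.55 without the 2 farthest libraries and 0.06 within mice of prefix 8.

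**Figure D4:**
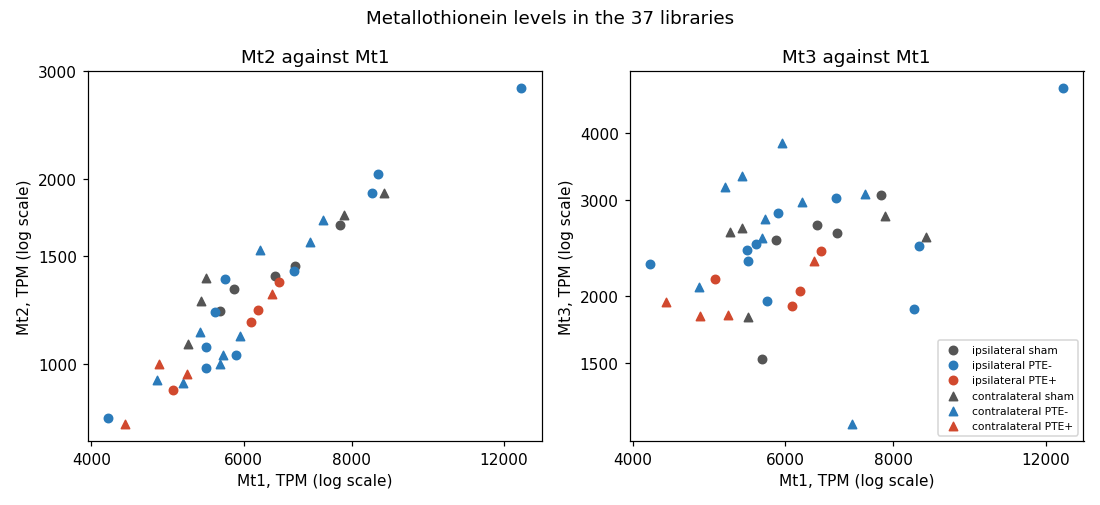
Mt2 (left) and Mt3 (right) against Mt1 in TPM on log scales, 1 point per library, coloured by group, with circles for ipsilateral and triangles for contralateral libraries. Mt2 keeps close to a line with Mt1, while Mt3 scatters, and the 8 PTE+ libraries of Mt3 lie between 1837 and 2416 TPM.

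Among 10235 genes with a mean above 5 TPM, the genes most like each member were named by the smaller of its ipsilateral (n = 19) and contralateral (n = 18) Pearson r after subtracting group means. These are descriptions, and the genes compared share library and composition. For Mt1 they were Mt2, Saa3, an acute phase serum amyloid (r = 0.74 and 0.66), and Lxn, a carboxypeptidase inhibitor (0.60 and 0.64). For Mt2 they were Mt1, Saa3 (0.72 and 0.70) and Tsc22d3, a leucine zipper protein induced by glucocorticoids (0.78 and 0.69). For Mt3 they were Ndufab1 (0.78 and 0.74), Ndufb1-ps (0.74 and 0.73) and Rbx1, a ubiquitin ligase subunit (0.72 and 0.75), of which Ndufab1 encodes a subunit of mitochondrial complex I. The transporters followed other genes. Slc30a10 was most like Brwd1 (0.83 and 0.81), Necap1 (0.81 and 0.80) and Pkdcc (0.80 and 0.81). Slc39a12 was most like Cept1 (0.86 and 0.87), Atp6ap2 (0.84 and 0.86) and Rnf139 (0.85 and 0.84). Slc39a14 was most like Erc1 (0.83 and 0.79), Plcb4 (0.89 and 0.78) and Gpatch2 (0.87 and 0.78).

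The other zinc transporters gave 1 call in 5 comparisons, where 0.573% to 4.05% of all genes tested were called, and 2.54% in the comparison with the call. Slc30a9, which encodes a ZnT protein of mitochondria, averaged 49.98 TPM (SD 11.9, n = 14) in ipsilateral and 62.0 TPM (SD 17.4, n = 13) in contralateral injured libraries, a log2 difference of -0.30 (limma p = 0.0415, adjusted p = 0.970). It was not called without the library of mouse 9_14, where it was 22.4 TPM, at a difference of -0.22, nor without PTE+ mouse 8_10 (-0.30), 9_17 (-0.29) or 9_18 (-0.28). With the mouse as a block it was -0.26, under the fold needed. Of the importers outside the members none was called, and Slc39a4, the intestinal zinc importer ZIP4, had the largest difference, 0.65 in the same comparison (limma p = 0.0957), at means of 6.15 and 3.74 TPM. Between PTE+ and PTE- mice 22 of the 30 zinc handling genes were tested in the ipsilateral and 21 in the contralateral cortex, with 0 and 1 called. The copper handling list of 10 genes, 8 of them tested in each comparison, had no call in any. At the shares of all genes called, 0 of 8 does not set this list apart. Cp, the ferroxidase ceruloplasmin, differed most, by -0.56 in contralateral injured against sham mice (limma p = 0.152).

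The iron handling list of 9 genes gave further calls, none of them with an adjusted p under 0.05. In each comparison 8 or 9 of its genes were tested and 0 or 1 called. Of all genes tested, 1.62% were called in ipsilateral and 4.05% in contralateral injured against sham mice. The shares were 0.573% and 2.79% for PTE+ against PTE- mice on these sides, and 2.54% between hemispheres. Hmox1, the haem oxygenase that frees iron from haem, was called higher after injury on both sides. In the ipsilateral cortex it was 17.03, 22.9, 24.2, 25.3 and 29.3 TPM in sham libraries and averaged 31.9 TPM (SD 5.40, n = 14) in injured ones. The log2 difference was 0.41 (standard error 0.15, limma p = 0.0104, adjusted p = 0.9997). In the contralateral cortex it averaged 26.4 TPM (SD 4.00, n = 13) after injury against 20.4 TPM (SD 3.24, n = 5) after sham surgery. The difference was 0.36 (standard error 0.12, limma p = 0.00877, adjusted p = 0.978). The ipsilateral call was lost without sham mouse 9_10 (0.30), while the contralateral one held when each sham and PTE+ mouse was left out in turn. Between the hemispheres of injured mice Hmox1 differed by 0.26, under the fold needed, and by 0.29 with the mouse as a block (limma p = 0.000247, adjusted p = 0.0881), which is called. Sham mice also averaged more Hmox1 ipsilaterally, at 23.7 TPM (SD 4.44, n = 5) against 20.4 TPM, with mouse 9_10 the other way (17.03 against 21.15 TPM). Whether injury changed this side difference was not tested. Slc40a1, the iron exporter ferroportin, was 12.2, 20.2, 24.6 and 52.3 TPM in contralateral PTE+ libraries and averaged 12.6 TPM (SD 3.18, n = 9) in PTE- libraries. The log2 difference was 0.91 (limma p = 0.00591, adjusted p = 0.999). The library at 52.3 TPM was that of mouse 9_17, highest also in endothelial markers, and without it the difference was 0.54 and still called. The part of endothelial cells in this level was not tested. Tfrc, the transferrin receptor, was lower in ipsilateral than in contralateral injured libraries, at means of 12.99 against 19.7 TPM (log2 difference -0.52, limma p = 0.024, adjusted p = 0.970). In that comparison 4 of 9 tested endothelial markers were called lower on the ipsilateral side, with a median of -0.48, and their part in the level of Tfrc was not tested. Sham mice 8_15, 8_16, 9_9, 9_10 and 9_11 had 14.11, 18.25, 10.83, 20.44 and 32.59 TPM of Tfrc ipsilaterally. Their contralateral levels were 18.13, 23.21, 16.32, 31.41 and 40.96 TPM. Each sham mouse thus had the lower level on the ipsilateral side, where sham surgery had opened the skull. Whether injury changed the side difference of Tfrc was not tested.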

How the data were processed

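Cortical astrocyte RNA of 20 mice was measured in 37 libraries. The authors trimmed reads with Trim Galore 0.6.4, aligned them to mm10 with Bowtie2 2.4.1 and estimated abundance with RSEM 1.2.28. The TPM values deposited by the authors, 1 table per hemisphere, were used as they are. The authors' own test was DESeq2 1.36.0 on counts, which were not analysed here. All 20 mice have at least 1 library. The ipsilateral library of PTE+ mouse 8_17 and the contralateral libraries of PTE+ mouse 9_19 and PTE- mouse 9_14 were not analysed here. TPM keep no depth, so counting error could not be given. The annotation release used by RSEM is not given in the sources used here.

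Groups came from the treatment label of each sample. The members and lists, and the wish to leave out mouse 9_14, were chosen with earlier results of these data known. Named outside the members were genes of the zinc, copper and iron lists that were called, or the one with the largest difference where none was, and the 3 genes most like 6 of the members. Gfap, Trem2, Pecam1, Tek, Stmn2, Slc39a7 and Mt4 were named after their values were seen. Log2(TPM + 1) was compared with limma 3.58.1 (R 4.3.3) with a variance trend, over genes with a mean above 5 TPM in 1 of the groups compared, and p-values were adjusted over all genes (Benjamini-Hochberg). Single values were tested by two-sided exact permutation of libraries or mice, correlations by 100000 permutations (Python 3.11.15, numpy 2.4.6, scipy 1.17.1). Libraries are separate mice within a group, and no 2 libraries held identical values. Hemispheres of a mouse are paired by the mouse name. Their deviations from group means correlated with a median r of 0.412 over 10235 genes, and above 0.1 in 16 of 17 mice. On simulated data, 74.7% (ipsilateral PTE+ against PTE-, 10500 genes) to 95.5% (contralateral injured against sham, 10437 genes) of genes changed by a fold of 2 were called. The simulation drew each gene independently, with a capped spread and no shifts shared by a library. In ipsilateral PTE+ against PTE- mice, 5.14% of its unchanged genes had a limma p under 0.05. Among the real genes 63 of 10473 did, so the simulated shares may not hold for the real data. Positions are from GENCODE vM21 and promoters from RefSeq on GRCm38.p6, which held 7 of the 8 members. Of the identifiers, 21856 had a symbol and 119 did not. Alternatives were a pseudocount of 0.1, filters of 0 or 1 TPM, quantile normalization, median centring, array weights, all 3 groups in a fit, the name prefix as a covariate, a fold of 1.5, the mouse as a block, and leaving out single sham or PTE+ mice or the ipsilateral library of mouse 9_14.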

Additional observations from a re-analysis of the deposited data

Results flagged for a closer look

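In 48 sets of 4 to 10 libraries (8 genes, 6 groups), Dixon's test at the 95% level found 7 single libraries far from the rest of their group, where chance gives about 1 in 20. In sham mice these were mouse 9_10 for Mt3, low in the ipsilateral (1527 TPM) and the contralateral cortex (1829 TPM), and mouse 9_11, high for contralateral Mtf1 (14.8 TPM) and for Slc39a12 on both sides (569 TPM ipsilateral and 512 TPM contralateral). In ipsilateral PTE- mice these were mouse 8_11, high for Mt3 (4840 TPM), and mouse 9_14, high for Slc30a1 (73.7 TPM). The paired values of Mt3 in mouse 9_10 and of Slc39a12 in mouse 9_11 each come from 1 mouse. Of 16 tests of the difference between hemispheres, 0 had an exact permutation p under 0.05.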

How the results depend on the processing

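Values are TPM without depth, so counting error is unknown, and single mice decided both member calls. Leaving out each sham or PTE+ mouse in turn gave 0 to 1 called members and 0 to 1 called zinc handling genes in contralateral injured against sham mice, the same 0 to 1 for both in contralateral PTE+ against PTE- mice, and 0 to 1 zinc handling genes in each ipsilateral comparison and between hemispheres. For contralateral injured mice, 0 members were called with no filter, median centring, array weights or a fold of 1.5, and 0 zinc handling genes with no filter, median centring or a fold of 1.5. For contralateral PTE+ mice, 0 of either were called with quantile normalization, median centring or a fold of 1.5, and 2 members and 3 zinc handling genes with array weights. Zinc handling genes called in the ipsilateral cortex rose from 0 to 1 with array weights (injured) and with the name prefix as a covariate (PTE+). Between hemispheres they were 2 with quantile normalization, 3 with array weights and 0 with a fold of 1.5. With the mouse as a replicate block, 0 members, 1 zinc handling gene and 467 of all genes were called there, against 263 without it. The cause was not tested. Of 624 alternative values of member differences, 607 kept their side of the threshold and direction or were uncalled both ways, 16 lost and 1 gained a call (Mtf1, contralateral PTE+ against PTE-, -0.45 with array weights), and 0 called values reversed. In 67 the sign of an uncalled value changed. Two-sided exact tests of members against sham mice kept their side in 40 of 40 alternatives. These were only a pseudocount of 0.1 and leaving out the library of mouse 9_14. No sham or PTE+ mouse was left out of them, so whether they depend on single mice was not tested. The tests between hemispheres kept their side in 62 of 64 alternatives. The exceptions were Mtf1 without mouse 9_17 (0.44) and Slc39a12 without mouse 8_10 (0.57). Over all genes, the higher share of calls went from 76.3% to 63.2% with quantile normalization and 65% with median centring in ipsilateral injured mice. It went from 56.7% to 33.3% and 28% in ipsilateral PTE+ mice, where quantile normalization moved the median log2 difference from 0.12 to 0.01, from 13.3% to 56.5% and 62.2% in contralateral injured mice, and from 69.8% to 32.4% and 41% in contralateral PTE+ mice. All-gene counts ran from 89 to 843 (ipsilateral injured against sham), 23 to 441 (ipsilateral PTE+ against PTE-), 70 to 883 and 118 to 828 (the same on the contralateral side) and 110 to 549 (between hemispheres) over the alternatives, against 169, 60, 428, 291 and 263. The member comparisons without mouse 9_14 among pairs of groups and the values for genes outside the members were added after the data were seen.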
